A study of Mus musculus with 97 samples.

Results

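Bile acid transport and sensing is described here in mouse colon through 6 genes: Slc10a2, Slc51a, Slc51b, Fabp6, Nr1h4 and Gpbar1. They were chosen by name, so no measured value of these libraries entered the choice directly, although earlier results of the same data were known. All 6 are among the 20457 genes of the table, and all 6 are among the 17083 genes tested, that is, genes with a TPM of 1 or more in at least 4 libraries. TPM is the share of a gene's transcripts in a library, scaled by transcript length and to the same total in every library.

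The libraries hold poly(A) RNA from whole colon of wild-type C57BL6/J mice aged 8 to 12 weeks. Mice received ampicillin (a beta-lactam), metronidazole (a nitroimidazole), neomycin (an aminoglycoside), vancomycin (a glycopeptide), a mix of the 4, or phosphate buffered saline (PBS) as control. The routes were oral (PO), intraperitoneal (IP) and intravenous (IV), with doses of 2.5 mg of drug in 100 µl PBS 2 times a day for 3 days and again on day 4, and tissue was collected 4 hours after the final dose. The 97 libraries form 18 groups of 6, but the IP groups of PBS, metronidazole and vancomycin and the IV group of metronidazole have 4, and the IV groups of vancomycin, PBS and neomycin have 5. Whether each replicate is a mouse of its own is not in the labels; the p-values therefore reflect spread among samples that may be technical. Which stretch of the colon a library holds is not in the labels either.

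Bile acids are made in the liver, stored in the gallbladder and taken back up mainly in the last part of the small intestine. In an enterocyte, Slc10a2 (the apical sodium-dependent bile acid transporter) takes them up, Fabp6 (ileal fatty acid binding protein) carries them in the cytosol, and Slc51a with Slc51b, the 2 subunits of the organic solute transporter, exports them towards the blood. Nr1h4 encodes FXR, the nuclear receptor that bile acids activate, and Gpbar1 encodes a cell surface receptor for them; what escapes uptake is altered by colonic bacteria, and the colon takes up part of it.

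The 4 promoters below are those of the genes that fell with the posterior Hox level described further on, and are shown for the letters found in them. The 250 bases before the RefSeq transcript start are printed 5′ to 3′ on the gene's strand, from the RefSeq table for GRCm38.p6; all 6 genes had an entry. The genes lie on the minus strand at chr8:5105288-5105537 (Slc10a2), chr16:32487880-32488129 (Slc51a), chr9:65422774-65423023 (Slc51b) and chr10:89506659-89506908 (Nr1h4). Capitals mark matches, on either strand, to TTTATNG (a Cdx type motif), GTTAAT (one arm of an HNF1 motif) and AGGTCA (one arm of the sites of nuclear receptors).
Slc10a2: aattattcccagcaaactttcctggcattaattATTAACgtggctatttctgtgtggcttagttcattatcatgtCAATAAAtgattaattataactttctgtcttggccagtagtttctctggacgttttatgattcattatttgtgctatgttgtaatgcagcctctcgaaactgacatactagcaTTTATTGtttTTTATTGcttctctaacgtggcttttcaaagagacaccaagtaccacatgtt
Slc51a: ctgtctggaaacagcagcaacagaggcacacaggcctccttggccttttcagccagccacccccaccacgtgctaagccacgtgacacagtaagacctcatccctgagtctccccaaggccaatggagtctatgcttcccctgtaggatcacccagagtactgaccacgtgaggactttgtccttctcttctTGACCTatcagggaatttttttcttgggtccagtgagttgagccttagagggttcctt
Slc51b: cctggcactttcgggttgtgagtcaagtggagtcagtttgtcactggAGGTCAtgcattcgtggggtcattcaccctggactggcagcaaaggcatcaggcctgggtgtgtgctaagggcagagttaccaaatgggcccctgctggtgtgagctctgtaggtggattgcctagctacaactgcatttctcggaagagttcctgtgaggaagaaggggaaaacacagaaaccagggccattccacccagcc
Nr1h4: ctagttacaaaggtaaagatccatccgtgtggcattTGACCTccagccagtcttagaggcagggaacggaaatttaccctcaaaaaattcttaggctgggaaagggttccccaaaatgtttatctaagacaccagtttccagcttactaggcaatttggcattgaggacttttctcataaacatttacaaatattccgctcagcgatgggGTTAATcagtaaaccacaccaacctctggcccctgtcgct

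The Slc10a2 window holds 3 matches to TTTATNG, which start at -175, -62 and -52 from the transcript start, and 1 to GTTAAT at -217. Of 32851 promoter windows of the same length, 9.81% hold TTTATNG and 6.43% hold GTTAAT at least once. AGGTCA, present in 4607 of the windows, occurs once each in Slc51a (-58), Slc51b (-203) and Nr1h4 (-214), and Nr1h4 also has GTTAAT at -40. The inverted repeat of AGGTCA with 1 base between its arms, the arrangement bound by FXR with its partner RXR and itself holding AGGTCA on each strand, is in none of the 6 windows and in 0.00609% of all. None of the 4 motifs is in the Fabp6 or Gpbar1 window. A match describes letters only and is not evidence of binding.

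The libraries differed strongly in posterior Hox level, the mean log2(TPM + 1) of Hoxa13, Hoxb13, Hoxd11, Hoxd12 and Hoxd13. These genes mark the hind end of the body axis and are known to rise towards the distal colon. The level ran from 0.80 to 6.15 with a median of 3.79, without separate clusters: the widest gap between neighbouring libraries was 0.23. It lay below 2 in 28 libraries, from 2 to 4 in 22 and at 4 or above in 47. A smooth muscle score (mean log2(TPM + 1) of 12 smooth muscle genes) ran from 7.98 to 12.3, and an epithelium score over 10 epithelial genes ran from 5.91 to 10.5. In bulk tissue, fewer cells of a type and less RNA per cell cannot be told apart.

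Slc10a2, the uptake transporter, ranged from 0.947 to 680.5 TPM and was the most variable of the genes along with Slc51a. At Hox levels below 2 its lowest, median and highest values were 3.16, 365 and 680.5 TPM. From 2 to 4 they were 2.51, 11.2 and 163 TPM, and at 4 or above 0.947, 5.96 and 14.4 TPM. Every library at a Hox level of 4 or above thus lay below 15 TPM. Above 100 TPM stood 26 libraries, from 121 TPM upward, all with a Hox level of 2.46 or less and spread over 16 of the 18 groups; the next library below them had 77.8 TPM. Only 3 libraries with a Hox level below 2 did not exceed 100 TPM. These were Vancomycin-IV replicate 5 (15.9 TPM), Metronidazole-IV replicate 3 (5.70 TPM) and Vancomycin-IP replicate 2 (3.16 TPM), with smooth muscle scores of 12.0, 11.8 and 12.2, near the top of the range, and epithelium scores of 8.62, 7.39 and 7.60. The part of muscle and epithelium content in these 3 values was not tested.

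Within groups, Slc10a2 fell by 1.17 on the log2 scale (SE 0.10) per unit of Hox level in the limma fit (adjusted p = 1.89e-17), the 18th steepest fall of the 17083 genes tested. Of all genes tested, 47.9% had a slope with an adjusted p under 0.05, 25.2% rising and 22.7% falling, and 5 of the 6 bile acid genes did, 4 falling and 1 rising. A call alone is therefore common, and it is the steepness that sets Slc10a2 and Slc51a near the end of the ranking. The relation of Slc10a2 to Hox level had Pearson r = -0.796 and Spearman rho = -0.692 over the 97 libraries after group means were removed (permutation p = 1e-05 for each, the smallest that the 100000 permutations can give; adjusted p = 1.5e-05 over the 6 relations). It was -0.792 without the 2 libraries farthest from the median Hox level, between -0.766 and -0.838 within the 3 routes, and -0.802 among the 15 PBS libraries.

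**Figure D1:**
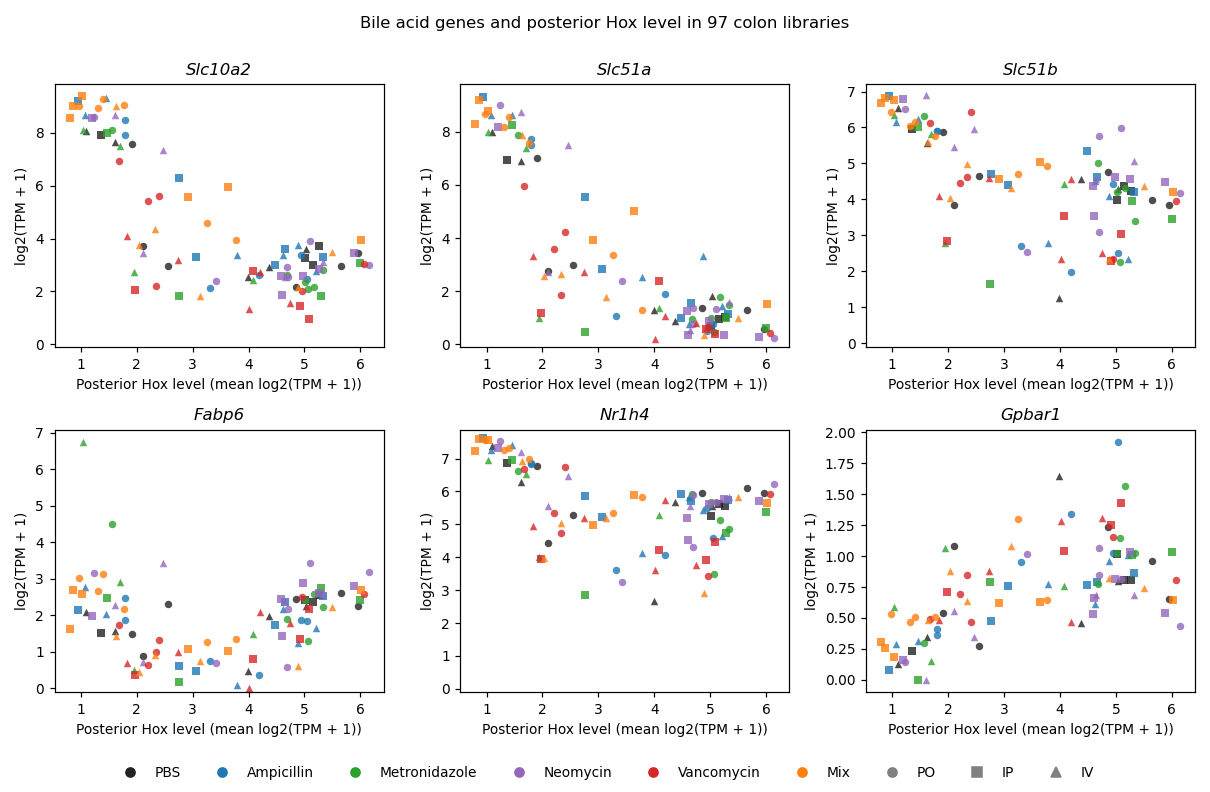
Level of each of the 6 genes (y axis, log2(TPM + 1), a separate scale per panel) against posterior Hox level (x axis, mean log2(TPM + 1) of 5 genes) in the 97 libraries, coloured by treatment with symbols for route. Slc10a2 and Slc51a are high below a Hox level of 2 and low above 4, Slc51b and Nr1h4 fall less, Gpbar1 is higher at high Hox levels, and Fabp6 shows no slope.

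Slc51a, the alpha subunit of the exporter, had the wider span, from 0.150 to 642 TPM. Its lowest, median and highest values were 0.991, 256 and 642 TPM at Hox levels below 2. They were 0.392, 5.64 and 179 TPM from 2 to 4, and 0.150, 0.935 and 9.11 TPM at 4 or above. The libraries of high Hox level thus held little Slc51a RNA. The slope was -1.57 log2 units per unit of Hox level (SE 0.10, limma adjusted p = 3.16e-23), the third steepest fall among all genes tested. Pearson r was -0.862 and rho -0.836 (permutation p = 1e-05, adjusted 1.5e-05), r was -0.858 without the 2 farthest libraries, and r lay between -0.831 and -0.884 within the routes.

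Slc51b, the beta subunit that the exporter needs to reach the membrane, was higher than Slc51a in libraries of high Hox level. Its lowest, median and highest values were 5.91, 69.5 and 120 TPM at Hox levels below 2. They were 1.41, 23.0 and 85.9 TPM from 2 to 4, and 2.94, 17.4 and 62.4 TPM at 4 or above. The 3 ranges overlap widely, and the medians of the outer ranges stand much closer than those of Slc51a. The slope was -0.50 (SE 0.07, limma adjusted p = 3.56e-09), and r was -0.627 with rho -0.615 (permutation p = 1e-05, adjusted 1.5e-05) and -0.616 without the 2 farthest libraries.

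The balance between the subunits turned over along the Hox level. TPM is scaled by transcript length, so levels of different genes can be set side by side. Among the 26 libraries with Slc10a2 above 100 TPM, Slc51a exceeded Slc51b in all but 1, with a median ratio of 3.57 (range 0.890 to 5.65). Among the other 71, Slc51b exceeded Slc51a in 69, with a median ratio of Slc51b to Slc51a of 10.1 (range 0.543 to 109). These 26 libraries were picked by the level of Slc10a2, which moves with Slc51a, so the ratios are a description without a test.

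Nr1h4, the bile acid nuclear receptor, was present in every library, from 5.40 to 197 TPM. Its lowest, median and highest values were 14.5, 123 and 197 TPM at Hox levels below 2. They were 5.40, 35.6 and 107 TPM from 2 to 4, and 6.51, 45.9 and 74.4 TPM at 4 or above. Its lowest median was in the middle range, where the smooth muscle score was also highest, with a median of 11.7 against 9.69 below 2 and 9.97 at 4 or above. The slope was -0.34 (SE 0.07, limma adjusted p = 2.96e-05), and -0.33 (SE 0.04) with the muscle score in the fit. Pearson r was -0.479 and rho -0.451 (permutation p = 3e-05 and 4e-05, adjusted 3.6e-05 and 4.8e-05), and r was -0.463 without the 2 farthest libraries. Its r with the muscle score was -0.703 and with the epithelium score 0.790, larger in size than with Hox level.

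Gpbar1, the cell surface receptor, ran the other way at a low level. It was listed at 0 in 2 libraries, reached 1 TPM or more in 26 and had its highest value at 2.80 TPM. Its lowest, median and highest values were 0, 0.258 and 1.09 TPM at Hox levels below 2, 0.209, 0.699 and 2.14 TPM from 2 to 4, and 0.348, 0.798 and 2.80 TPM at 4 or above. The slope was 0.15 (SE 0.02, limma adjusted p = 8.09e-10), on a log2(TPM + 1) scale that understates the change of a gene at this level. Pearson r was 0.654 and rho 0.631 (permutation p = 1e-05, adjusted 1.5e-05), and r was 0.653 without the 2 farthest libraries.

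Fabp6, the cytosolic carrier, did not follow the Hox level over the 97 libraries. Its lowest, median and highest values were 0.282, 3.49 and 107 TPM at Hox levels below 2. They were 0.0589, 0.768 and 9.74 TPM from 2 to 4, and 0, 3.79 and 9.75 TPM at 4 or above. The lowest median was again in the middle range with its high muscle scores, whose part in it was not tested. The slope was 0.03 (SE 0.07, 95% interval -0.11 to 0.16, limma adjusted p = 0.782), with r = 0.041 (permutation p = 0.704) and rho = 0.135 (p = 0.227). The r of Fabp6 with Hox level differed between subsets, at -0.049 in PO, 0.363 in IP, -0.105 in IV and 0.497 among the 15 PBS libraries. These r were not tested. The limma slope of Fabp6 in the 15 PBS libraries alone was not called. Fabp6 went with the epithelium score (r = 0.607) and against the muscle score (r = -0.624). Fgf15, the hormone that FXR induces in ileum, did not exceed 0.634 TPM in any library and was not tested.

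With the smooth muscle score in the fit, the slopes of Slc10a2, Slc51a, Slc51b, Nr1h4 and Gpbar1 were -1.16, -1.57, -0.49, -0.33 and 0.14, close to those without it, and 30% of all genes were called rising and 30.1% falling. As without the score, 1 of the 6 genes was called rising and 4 falling. The 15 PBS libraries alone gave limma calls for Slc10a2 and Slc51a only, and the share of all genes called there was not counted. In that fit the slopes were -0.44 for Slc51b (adjusted p = 0.113), -0.22 for Nr1h4 (0.468) and 0.13 for Gpbar1 (0.2). Fabp6 was not called there either.

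Of the 15 pairs, Slc10a2 and Slc51a had the highest Pearson r, at 0.969 with rho = 0.892 after group means were removed (permutation p = 1e-05, adjusted 1.36e-05 over the 15 pairs), and r = 0.968 without the 2 libraries farthest from the median Slc10a2. Within ranges of Hox level, group means were left in, so r there is not the same measure as over the 97 libraries. The pair's r was 0.9747 in the 28 libraries at Hox levels below 2, 0.903 in the 22 from 2 to 4, and 0.341 in the 47 at 4 or above, where both genes were low. Slc51b and Nr1h4 had r = 0.932 and the highest rho of the pairs, 0.908 (p = 1e-05, adjusted 1.36e-05; 0.921 without the 2 farthest), and their r was 0.965, 0.954 and 0.845 in the same 3 ranges. In the libraries of high Hox level, the r of Slc51b with its partner subunit Slc51a was 0.194. Slc51a was low there, with a median of 0.935 TPM, which limits any r with it. With group means, epithelium score and Hox level all removed, r was 0.895 for Slc10a2 with Slc51a and 0.751 for Slc10a2 with Nr1h4. Slc51b then had similar r with Nr1h4 (0.486) and with Slc51a (0.444). Gpbar1 had a negative r with each of the other 5 genes, from -0.277 with Fabp6 (permutation p = 0.0142, adjusted 0.0142) to -0.771 with Slc10a2 (p = 1e-05, adjusted 1.36e-05).

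**Figure D2:**
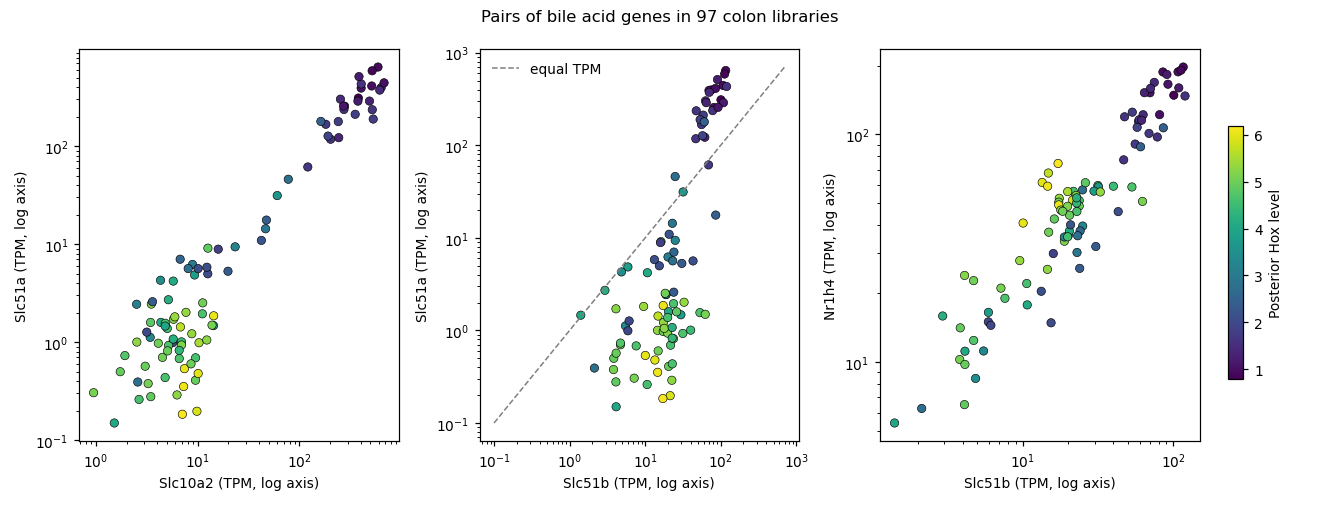
TPM on log axes for Slc10a2 with Slc51a, Slc51b with Slc51a, and Slc51b with Nr1h4; each point is 1 of the 97 libraries, coloured by posterior Hox level, and the dashed line marks equal TPM of the 2 subunits. Most libraries of low Hox level lie above the line and most others below it, while Slc51b and Nr1h4 rise together over the whole range.

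The genes most like each one were listed by r over the 97 libraries, after group means were removed and with the 6 genes themselves and unnamed gene models left out. For Slc51a these were Prap1 (r = 0.986), Nts (0.984), Cyp4b1 (0.980), Acaa1b (0.976) and Amn (0.965). For Slc10a2 they were Prap1 (0.961), Nts (0.958), Osr2 (0.956), Amn (0.956) and Cyp4b1 (0.952). Nts encodes the gut peptide neurotensin, Osr2 a zinc finger transcription factor and Amn amnionless, a part of the receptor for vitamin B12 with intrinsic factor. Slc51b was most like Papss2 (0.948), Fam3b (0.946), Hsd3b3 (0.945), Mettl7b (0.943) and Slc25a10 (0.943). Nr1h4 was most like Papss2 (0.971), Tmc5 (0.957), Abcc3 (0.953), Pgap6 (0.953) and Mvp (0.949); Papss2 makes the sulfate donor for sulfation, and Abcc3 exports conjugated bile acids across the basolateral membrane. Fabp6 had looser company, led by Mtarc2 (0.771), Smim24 (0.763), Ceacam18 (0.760), Nudt8 (0.755) and Sh3rf2 (0.750), and so did Gpbar1 with Kcns1 (0.786), Svep1 (0.782), Id4 (0.779), Bglap (0.779) and Susd5 (0.765). All of these values share the same libraries and their Hox, muscle and epithelium differences.

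Other genes of bile acid handling were called in both directions along the Hox level, no more often than genes at large (47.9%). Of 19 carriers and conjugating enzymes tested, 5 fell and 2 rose (36.8% called), with a median slope of -0.03 against 0.00 over all genes. Cyp2c55, a cytochrome P450 of the colon, fell with a slope of -1.01 (adjusted p = 4.02e-14), Ugt1a1, which glucuronidates bilirubin and bile acids, with -0.92 (adjusted p = 2.08e-13), and the basolateral exporter Abcc3 with -0.34 (adjusted p = 2.55e-05). Slco4a1, an organic anion carrier, fell with a slope of -0.28 (adjusted p = 6.05e-09). Of 12 other receptors and partners tested, 3 rose and 2 fell (41.7% called), with a median slope of -0.02. The rising ones were Klb, the co-receptor for Fgf15 (0.54, adjusted p = 2.52e-18), Nr1i3, the nuclear receptor CAR (0.41, adjusted p = 3.38e-13), and the muscarinic receptor Chrm2 (0.38, adjusted p = 3.48e-06). Rxra, the partner of FXR, fell with a slope of -0.24 (adjusted p = 4.97e-24).

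Over all genes tested, 22.7% fell along the Hox level and 25.2% rose, so a call alone is common. Of 12 transcription factors of intestinal position, 4 fell and none rose. They were Osr2 (-1.32, adjusted p = 7.74e-16), Cdx2 (-0.65, adjusted p = 6.98e-18), Gata5 (-0.20, adjusted p = 1.69e-08) and Gata4 (-0.09, adjusted p = 0.000483). Of 12 small intestine enterocyte genes, 6 fell and none rose, with Alpi (-1.11, adjusted p = 3.01e-29), Fabp2 (-1.07, adjusted p = 1.1e-26), Sis (-0.91, adjusted p = 1.04e-14) and Enpep (-0.37, adjusted p = 2.51e-05) the steepest. The other 2 were Apoa1 (-0.26, adjusted p = 0.00289) and Treh (-0.15, adjusted p = 0.00444). Among the defining genes of the small intestine, Lct had a median of 0.210 TPM at Hox levels below 2 and 0.164 TPM at 4 or above, and Apoa4 had 0.193 and 0.0753 TPM; neither slope was called. Apoa1 had 1.36 and 0.246 TPM. Sis had 25.02 and 0.175 TPM in the same 2 ranges and Fabp2 439 and 26.4 TPM. The genes of the list thus differed widely in level at low Hox levels. Of the 12 colon surface epithelium genes 5 rose and 5 fell. Markers of other cell types were also called, beside 47.9% of all genes called in either direction. Of 8 goblet cell genes 6 rose and 2 fell, of 10 macrophage genes 8 rose and 1 fell, and of 7 enteroendocrine L cell genes 2 rose and 2 fell. Of 3 Paneth cell genes tested 2 rose and 1 fell, and all 3 gallbladder and liver genes tested rose. Of the 10 genes of the epithelium score 1 rose, and of the 12 smooth muscle genes 1 fell. The part of these cell types in the slopes of the 6 bile acid genes was not tested.

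**Figure D3:**
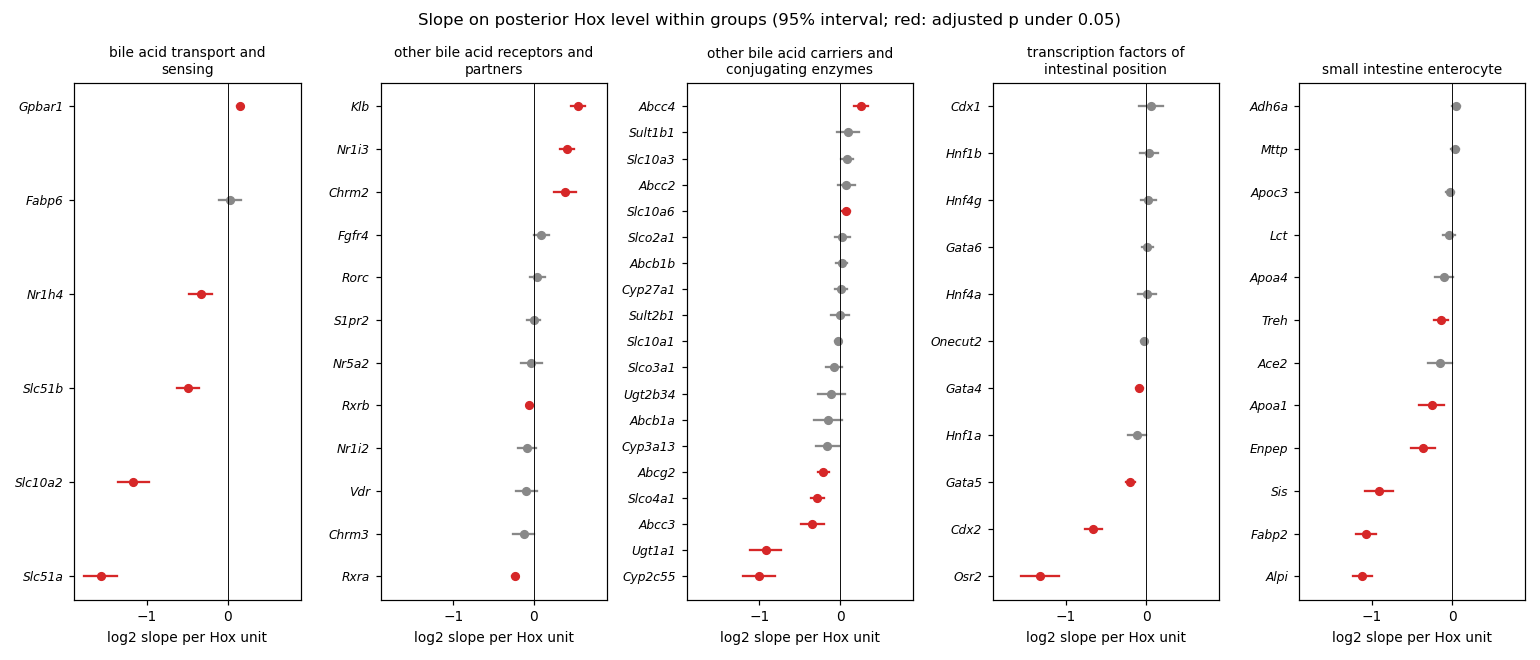
Slope on posterior Hox level (x axis, log2 units per unit of Hox level, with the 95% interval) for the 6 genes and for 4 lists of other genes, 1 gene per line; red marks an adjusted p under 0.05. Slc51a (-1.57) and Slc10a2 (-1.17) lie far to the left, as do Osr2, Alpi, Fabp2 and Cyp2c55.

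The study's own comparisons, each antibiotic with PBS of the same route, called none of the 6 genes. Over the 90 tests (6 genes in 15 comparisons) limma gave 0 with an adjusted p under 0.05 and 3 with an unadjusted p under 0.05, the lowest adjusted p being 0.119. The share of all genes called was 0.0702% in Ampicillin-PO, 0.492% in Ampicillin-IP and 0.082% in Ampicillin-IV. It was 0% in Metronidazole-PO, Metronidazole-IP, Metronidazole-IV and Mix-IV, and 0.0176%, 0.603% and 0.544% in Neomycin-PO, Neomycin-IP and Neomycin-IV. It was 0.176% in Vancomycin-PO, 19% in Vancomycin-IP, 0.258% in Vancomycin-IV, 0.252% in Mix-PO and 0.275% in Mix-IP. So only Vancomycin-IP had many calls among genes at large. The 5 comparisons of a route share its PBS libraries.

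**Figure D4:**
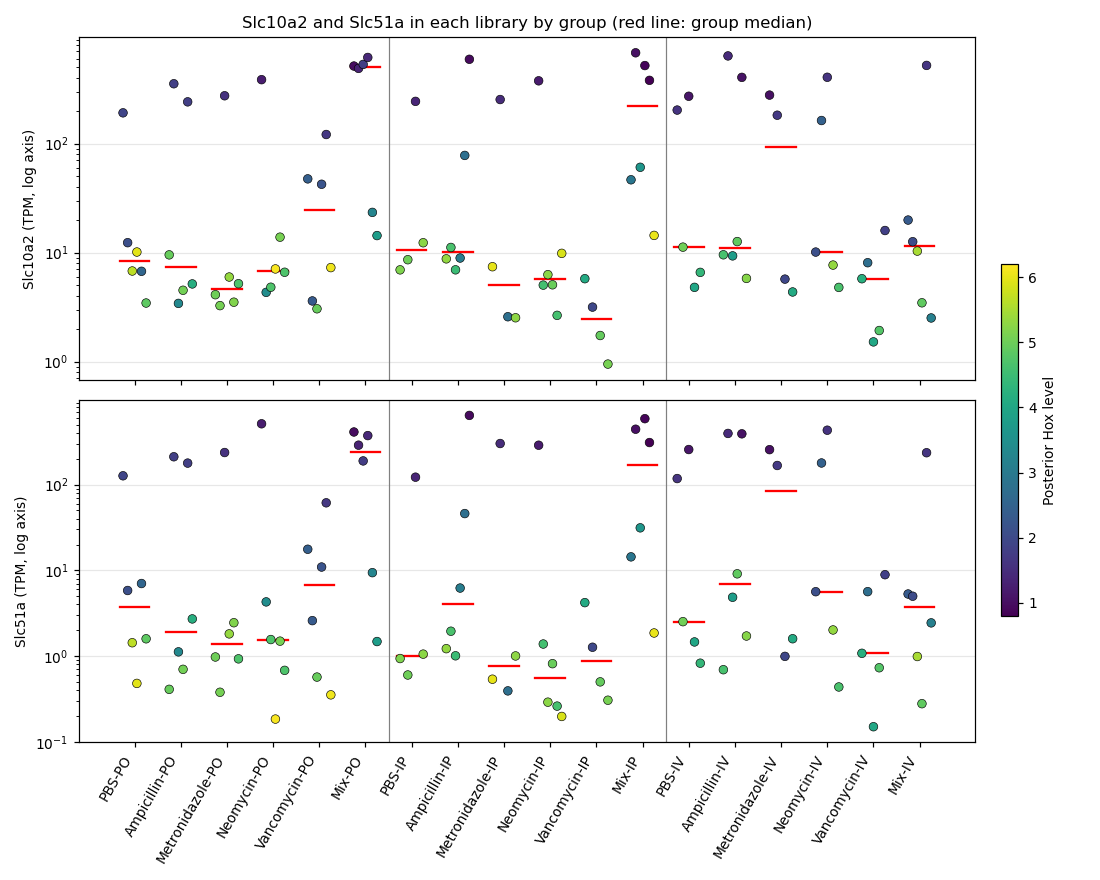
Slc10a2 (upper) and Slc51a (lower) in TPM on a log axis for each library of the 18 groups, ordered by route, with the group median in red and the points coloured by posterior Hox level. High values of both genes are in dark points, those of low Hox level, within nearly every group.

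The PBS groups themselves spanned most of this range. Slc10a2 in the 6 PBS-PO libraries had a lowest value of 3.44, a median of 8.44 and a highest of 191 TPM. The 4 PBS-IP libraries held 6.94, 8.60, 244 and 12.3 TPM, and the 5 PBS-IV libraries 203, 11.2, 272, 4.79 and 6.58 TPM. Slc51a in PBS-PO had a lowest value of 0.479, a median of 3.70 and a highest of 127 TPM. It stood at 0.935, 0.601, 122 and 1.05 TPM in PBS-IP, and at 118, 2.52, 257, 1.46 and 0.825 TPM in PBS-IV. The libraries above 100 TPM of either gene, 1 in PBS-PO, 1 in PBS-IP and 2 in PBS-IV, had Hox levels of 1.91, 1.36, 1.61 and 1.10. Slc51b, Nr1h4, Fabp6 and Gpbar1 had medians of 19.4, 61.4, 3.90 and 0.758 TPM in PBS-PO, 18.9, 47.4, 4.29 and 0.747 TPM in PBS-IP, and 22.8, 49.9, 2.93 and 0.376 TPM in PBS-IV. The F test between the 3 PBS groups called none of the 6 genes (limma adjusted p from 0.94 to 0.994) and 0% of all genes.

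The antibiotic mix given by mouth had the highest group median of Slc10a2. Its 6 libraries had a lowest value of 14.3, a median of 502 and a highest of 617 TPM, and 4 of them exceeded 100 TPM against 1 of 6 in PBS-PO. The groups overlap. The log2 difference was 3.66 (SE 1.38, limma adjusted p = 0.261). Slc51a had a lowest value of 1.48, a median of 239 and a highest of 411 TPM in Mix-PO, a log2 difference of 3.61 (SE 1.72, adjusted p = 0.42). The 4 libraries with high values had Hox levels from 0.97 to 1.77, and the mean Hox level was 2.08 in Mix-PO against 3.84 in PBS-PO. With Hox level and smooth muscle score as covariates, the difference was 1.64 (SE 0.68, adjusted p = 0.259) for Slc10a2 and 0.88 (SE 0.74, adjusted p = 0.672) for Slc51a. Slc51b and Nr1h4 differed by 1.18 (SE 0.75, adjusted p = 0.593) and 0.97 (SE 0.66, adjusted p = 0.633) without covariates.

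In Mix-IP, Slc10a2 had a lowest value of 14.4, a median of 220.4 and a highest of 680.5 TPM. The log2 difference from PBS-IP was 2.60 (SE 1.54, adjusted p = 0.434), and 0.50 (SE 0.75, adjusted p = 0.82) with the covariates. Slc51a had a lowest value of 1.86, a median of 171 and a highest of 588 TPM, with differences of 3.72 (SE 1.92, adjusted p = 0.357) and 0.96 (SE 0.82, adjusted p = 0.626). Here too the mean Hox level was lower, at 2.54 against 4.20, and 3 of 6 libraries exceeded 100 TPM of Slc10a2. In Mix-IV, with a mean Hox level of 3.25 against 3.22 in PBS-IV, the differences were -0.86 (SE 1.45, adjusted p = 0.937) for Slc10a2 and -1.07 (SE 1.80, adjusted p = 0.936) for Slc51a. The Mix groups that were high in both genes were therefore the 2 with a low mean Hox level. The part of treatment in the Hox level of the Mix libraries was not tested. With array weights, which let limma weight each library by its fit, Slc10a2 and Slc51a were called higher in both Mix-PO (adjusted p = 0.00858 and 0.0415) and Mix-IP (adjusted p = 0.0026 and 0.000525). In Mix-IP, Slc51b (2.03, adjusted p = 0.00445) and Nr1h4 (1.5, adjusted p = 0.0145) were then also called higher and Gpbar1 (-0.52, adjusted p = 0.023) lower. The share of all genes called with array weights was not counted, so these calls cannot be set beside it.

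Vancomycin-IP had the lowest group median of Slc10a2, Slc51b and Nr1h4. Slc10a2 stood at 5.75, 3.16, 1.73 and 0.947 TPM in its 4 libraries, all below the lowest PBS-IP value of 6.94 TPM. Slc51b stood at 10.7, 6.14, 3.84 and 7.16 TPM against 14.9 TPM or more in PBS-IP. Nr1h4 stood at 17.8, 14.5, 14.1 and 21.1 TPM against 37.2 TPM or more. For these 3 genes the groups do not overlap, as was the case, with Vancomycin-IP lower, for 7.72% of all genes tested, while for Slc51a (4.20, 1.27, 0.4996 and 0.305 TPM), Fabp6 and Gpbar1 they do. The log2 differences were -2.67 (SE 1.69, adjusted p = 0.234) for Slc10a2, -1.72 (SE 0.92, adjusted p = 0.155) for Slc51b and -1.68 (SE 0.81, unadjusted p = 0.0419, adjusted p = 0.119) for Nr1h4, none of which passed the limma threshold. The Slc10a2 difference was -1.52 (adjusted p = 0.544) without PBS-IP replicate 3, the library with 244 TPM. The smooth muscle score was 11.8 ± 0.318 (SD, n = 4) in Vancomycin-IP and 9.51 ± 0.434 (n = 4) in PBS-IP, all 12 smooth muscle genes were called higher, and the epithelium score was 8.39 ± 0.746 against 9.90 ± 0.264. With both covariates the differences were -0.999 (SE 0.86, adjusted p = 0.822) for Slc10a2, -0.21 (SE 0.50, adjusted p = 0.96) for Slc51b and -0.05 (SE 0.46, adjusted p = 0.992) for Nr1h4. In a limma fit of these 2 groups alone Slc51b and Nr1h4 passed (adjusted p = 0.0148 and 0.00393), and with Hox level as the only covariate Slc10a2 did (-2.89, adjusted p = 0.0359). With array weights Fabp6 (-1.39, adjusted p = 0.00909) and Nr1h4 (-1.36, adjusted p = 0.0179) were called lower. The share of all genes called was not counted in the fit of the 2 groups alone, with Hox level alone or with array weights.

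The column order of the table bears on the vancomycin comparisons. The columns of 12 libraries stand after the end of the group order, 8 of them vancomycin and 4 PBS, among them 3 of the 4 Vancomycin-IP and 2 of the 4 PBS-IP libraries. Whether these libraries were handled apart is not in the labels. Without them 1 Vancomycin-IP and 2 PBS-IP libraries are left, with differences of -0.37 for Slc10a2 (adjusted p = 0.96), -0.64 for Slc51b (adjusted p = 0.844) and -1.20 for Nr1h4 (adjusted p = 0.638), where the lone library is assumed to vary like the other groups. Vancomycin over the 3 routes then had -1.35 for Slc10a2 (adjusted p = 0.482) and -0.998 for Nr1h4 (adjusted p = 0.261).

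In Vancomycin-IP, 3 of 12 other receptors and partners rose and none fell (25% called), and 1 of 19 carriers and enzymes rose and 3 fell (21.1%), beside 19% of all genes. S1pr2, a receptor for lysolipids and conjugated bile acids, rose by 1.78 (SE 0.41, adjusted p = 0.00615), and Chrm2 and Chrm3, muscarinic receptors of smooth muscle, rose by 2.50 and 1.84 (adjusted p = 0.034 and 0.0471). Abcb1a, an apical drug exporter, fell by 2.76 on the log2 scale (SE 0.94, adjusted p = 0.0346). The median difference was -0.74 over the receptors and -0.63 over the carriers, against 0.11 over all genes. With both covariates no gene of these 2 lists was called.

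In Vancomycin-IV, Slc10a2 stood at 5.75, 8.07, 1.51, 1.93 and 15.9 TPM, and the 2 high PBS-IV libraries had no counterpart; the ranges overlap. The difference was -2.39 (SE 1.51, adjusted p = 0.502), and -1.23 (SE 0.74, adjusted p = 0.427) with the covariates. Slc51a stood at 1.08, 5.64, 0.150, 0.730 and 8.89 TPM, a difference of -2.16 (SE 1.88, adjusted p = 0.644). With array weights Nr1h4 was called lower (-1.45, adjusted p = 0.0369), in a fit whose share of all genes called was not counted. In Vancomycin-PO, Slc10a2 had a lowest value of 3.05, a median of 24.8 and a highest of 121 TPM, a difference of 0.40 (SE 1.38, adjusted p = 0.997). Vancomycin-IP and Vancomycin-IV were the 2 groups without a library above 100 TPM of Slc10a2.

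Ampicillin, metronidazole and neomycin gave Slc10a2 and Slc51a differences smaller than their standard errors. Over these 9 groups the Slc10a2 difference ran from -0.83 (Neomycin-IP, SE 1.54) to 0.69 (Ampicillin-PO, SE 1.38), and the Slc51a difference from -0.53 (Neomycin-IP, SE 1.92) to 1.17 (Ampicillin-IP, SE 1.92). The 95% interval for Slc10a2 in Ampicillin-PO, -2.06 to 3.44, shows how little a difference of this kind is bounded. Gpbar1 differences over all 15 comparisons ran from -0.27 in Mix-IP (SE 0.24) to 0.39 in Vancomycin-IP (SE 0.26). Slc51b was highest relative to PBS, among these 9, in Neomycin-IV at 1.15 (SE 0.82, adjusted p = 0.824), where its 5 libraries had a lowest value of 22.9 and a highest of 120 TPM.

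**Figure D5:**
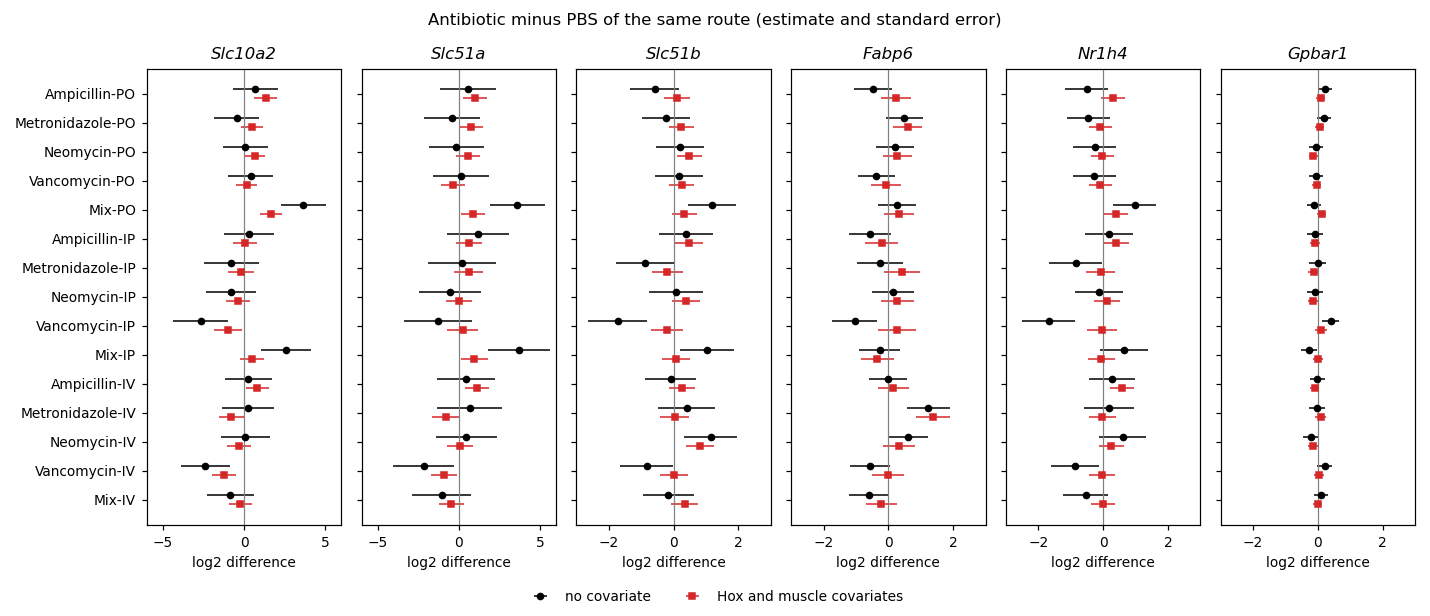
Log2 difference between each antibiotic group and PBS of its route for the 6 genes (x axis, with a wider scale for Slc10a2 and Slc51a), with bars of 1 standard error, from the limma fit without covariates (black) and with Hox level and smooth muscle score (red). The standard errors of Slc10a2, Slc51a, Slc51b and Nr1h4 are smaller with the covariates, and the points of Slc10a2 and Slc51a for Mix-PO, Mix-IP and Vancomycin-IP lie nearer to 0.

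With Hox level and smooth muscle score as covariates, none of the 6 genes was called in any of the 15 comparisons either. The share of all genes called in those fits was 0.211%, 3.07% and 0.82% for Ampicillin-PO, Ampicillin-IP and Ampicillin-IV. It was 0.0176%, 0% and 0.00585% for metronidazole in the same order of routes, and 0.0527%, 1.6% and 1.03% for neomycin. It was 0.738%, 0.65% and 0.942% for vancomycin and 0.743%, 1.04% and 0.135% for the mix. In Vancomycin-IP the share was thus far smaller with the covariates than without them, and in most other comparisons it was larger.

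Averaged over the 3 routes, no antibiotic called any of the 6 genes either. Of these 30 tests 0 passed the limma threshold and 3 had an unadjusted p under 0.05. The share of all genes called was 7.88% for ampicillin, 0.398% for metronidazole, 2.34% for neomycin, 26% for vancomycin and 7.96% for the mix. The mix had a difference of 1.80 (SE 0.84, adjusted p = 0.181) for Slc10a2 and 2.09 (SE 1.05, adjusted p = 0.221) for Slc51a, and 0.63 (SE 0.42, adjusted p = 0.361) and 0.46 (SE 0.45, adjusted p = 0.586) with both covariates. Vancomycin had -0.94 (SE 0.43, adjusted p = 0.0874) for Nr1h4 and -1.55 (SE 0.89, adjusted p = 0.172) for Slc10a2, and -0.05 (SE 0.24, adjusted p = 0.937) and -0.69 (SE 0.45, adjusted p = 0.413) with the covariates. Without PBS-IV replicate 4, the library with the lowest epithelium score of all (5.91), the Nr1h4 difference for vancomycin was -1.17 (adjusted p = 0.0228) and passed. With array weights Fabp6 (-0.97, adjusted p = 0.00272) and Nr1h4 (-0.88, adjusted p = 0.0112) were called lower under vancomycin, and Slc10a2 (2.69, adjusted p = 0.00165), Slc51a (3.23, adjusted p = 0.00211) and Slc51b (0.999, adjusted p = 0.0157) higher under the mix. Neither without PBS-IV replicate 4 nor with array weights was the share of all genes called counted.

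With both covariates none of the 6 genes was called in these averages, and the share of all genes called was 13.1%, 0.62%, 7.23%, 6.42% and 10.7% for ampicillin, metronidazole, neomycin, vancomycin and the mix.

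Some other bile acid genes passed in the averages without covariates. Under ampicillin, 2 of 19 carriers and enzymes rose and 2 fell (21.1% called, beside 7.88% of all genes). With both covariates 5 rose and 3 fell, beside 13.1% of all genes called. Cyp2c55 fell by 3.13 (SE 0.78, adjusted p = 0.00556) and Abcb1a by 1.95 (SE 0.47, adjusted p = 0.00413), while Cyp27a1, which oxidises cholesterol side chains, rose by 0.70 (SE 0.20, adjusted p = 0.0165) and Slc10a6, a carrier of sulfated steroids, by 0.58 (SE 0.13, adjusted p = 0.00261). Under vancomycin 1 of the 19 rose and 5 fell (31.6%), and 3 of 12 receptors and partners rose and 2 fell (41.7%), beside 26% of all genes, while all 12 smooth muscle genes were called higher. With both covariates 2 carriers fell and none rose, 2 receptors rose and none fell, and no smooth muscle gene was called, beside 6.42% of all genes. Among the carriers that fell without covariates were Cyp2c55 (-2.75, SE 0.82, adjusted p = 0.0112) and Sult2b1, a sulfotransferase (-1.02, SE 0.31, adjusted p = 0.0135). S1pr2 rose by 1.06 (SE 0.22, adjusted p = 0.000466) and Nr5a2, a nuclear receptor of bile acid synthesis in liver, fell by 0.99 (SE 0.36, adjusted p = 0.0342). Under the mix, Rxra rose by 0.53 (SE 0.16, adjusted p = 0.0232) and was the only one of the 12 receptors and partners called (8.33%, near the 7.96% of all genes); none of the 19 carriers was called. With both covariates 2 receptors rose, and 1 carrier rose and 2 fell, beside 10.7% of all genes called. The averages for the 5 antibiotics share the same PBS libraries.

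The F test for a difference between the routes called none of the 6 genes for any antibiotic. All 36 tests, those between the PBS groups included, had an unadjusted p above 0.05, the lowest being 0.0716 for Slc10a2 under the mix (limma adjusted p = 1). The share of all genes called was 0.0878% for neomycin and 0% for each of the other 4 antibiotics.

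The libraries with a Hox level below 2 can be set side by side by treatment, as a description without a test, since they were picked by a measured level and come from different routes. Slc10a2 lay between 191 and 272 TPM in the 4 PBS libraries, between 241 and 637 in 5 of ampicillin, between 376 and 406 in 3 of neomycin and between 380.2 and 680.5 in 8 of the mix. It lay between 5.70 and 278 TPM in 5 of metronidazole and between 3.16 and 121 in 3 of vancomycin. All 8 mix and all 3 neomycin libraries thus lay above the 4 PBS libraries, and all 3 vancomycin libraries below them. The ranges of ampicillin and metronidazole overlapped that of PBS. For Slc51a the mix (189 to 588 TPM) overlapped PBS (118 to 257 TPM). Neomycin (288 to 513 TPM) lay above PBS and vancomycin (1.27 to 61.4 TPM) below it. The share of all genes with ranges apart in these libraries was not counted. Median Hox levels were 1.17 (mix), 1.23 (neomycin), 1.49 (PBS) and 1.83 (vancomycin). Median smooth muscle scores were 8.99, 9.36, 9.46 and 12.0, in the same order. The part of these levels in the order was not tested here.

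Fabp6 had 1 library far above the rest. Metronidazole-IV replicate 1 held 107 TPM, and the other 3 of its group 6.59, 0.418 and 1.82 TPM. The next values over all groups were 21.9 TPM (Metronidazole-PO replicate 3) and 9.75 TPM. The same library held 335 TPM of Apoa1 and 30.7 TPM of Mttp, genes of lipoprotein assembly in small intestine. The second highest values of any library were 49.4 and 5.69 TPM. Its Apoc3 (6.23 TPM) and Lct (4.53 TPM, second highest 4.06 TPM) were also the highest. Other small intestine genes did not set the library apart. Its Apoa4, Sis, Alpi and Fabp2 were 57.5, 94.5, 39.2 and 539 TPM, against highest values of 61.9, 97.2, 109 and 1159 TPM elsewhere. Its Slc10a2, at 278 TPM, was within the range of other libraries of low Hox level. The difference for Fabp6 in Metronidazole-IV was 1.24 (SE 0.66, adjusted p = 1), and -0.04 without this library. The part of small intestinal RNA in this value was not tested.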

How the data were processed

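RNA from whole mouse colon was measured in 97 libraries of 18 groups. The authors deposited one table of TPM values; the tools were Salmon on GRCm39 after Trim Galore 0.6.2 with cutadapt 3.5, per the submitters' processing notes, and the version of Salmon is not given in the sources used here. Whether the library kept strand is not stated. TPM keeps no record of depth, so depth is unknown; a library listed 18247 to 19884 genes above 0.

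Values were used as log2(TPM + 1) without further scaling, on genes with TPM of 1 or more in at least 4 libraries. One limma 3.58.1 model (R 4.3.3, trend, robust) held all 18 groups; p-values were adjusted by Benjamini-Hochberg over all 17083 genes within each comparison and called under 0.05. The slope fit added posterior Hox level. Correlations used deviations from group means and 100000 two-sided permutations within groups (numpy 2.4.6). Those of gene pairs within ranges of Hox level used log2(TPM + 1) with group means left in and were not tested. The test was also run on simulated data with normal noise drawn for each gene alone. That setting does not cover genes that move together or split into high and low libraries within groups.

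The 6 genes and the 13 other lists were chosen with earlier results of these data known. Named genes were the 6 and, per list, at most 4 called genes by smallest adjusted p, or by steepest slope for the Hox fit; the 5 most alike genes were ranked by r. Of 142 listed genes 17 were not tested, 12 of which had no match in the table used here. A further listed gene is counted with its list but not reported here or drawn. Alternatives covered pseudocount, filter, scaling, weights, blocks, covariates and left-out libraries. The 12 libraries whose columns follow out of group order, 8 of vancomycin and 4 of PBS, were also left out together.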

Additional observations from a re-analysis of the deposited data

Results flagged for a closer look

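Each of the 6 genes was checked in each of the 18 groups for a library far from the others of its group on the log2(TPM + 1) scale, and 17 of 108 such checks stood out. Chance gives about 1 in 20 for independent checks of normally spread values. These checks share libraries and genes that move together, so the 17 are not separate results. They are listed by gene. For Slc10a2 the libraries that stood out were Metronidazole-PO replicate 3 at 274 TPM (others 3.26 to 5.96), Mix-IV replicate 5 at 521 TPM (2.51 to 19.9) and Neomycin-IP replicate 1 at 376 TPM (2.65 to 9.83). The other Slc10a2 values were 386 TPM in Neomycin-PO replicate 1 (others 4.31 to 13.8), 244 TPM in PBS-IP replicate 3 (6.94 to 12.3) and 191 TPM in PBS-PO replicate 1 (3.44 to 12.3). For Slc51a, 5 of these libraries stood out again, at 237 TPM (Metronidazole-PO replicate 3), 236 TPM (Mix-IV replicate 5), 288 TPM (Neomycin-IP replicate 1), 513 TPM (Neomycin-PO replicate 1) and 122 TPM (PBS-IP replicate 3). Metronidazole-IP replicate 2 also did, at 302 TPM of Slc51a against 0.392 to 1.00 in the others. Slc51b was far above its group in Neomycin-IP replicate 1 at 109 TPM (others 10.6 to 23.7), and Nr1h4 in Ampicillin-IP replicate 6 at 197 TPM (35.9 to 59.1). The Hox level of these libraries lay between 0.94 and 1.91. Fabp6 was far below its group in Metronidazole-IP replicate 3, at 0.125 TPM against 4.39 to 5.79 with a smooth muscle score of 11.9, and in PBS-IP replicate 3, at 1.88 TPM against 4.20 to 4.84. Gpbar1 was far above its group in Mix-PO replicate 5, at 1.46 TPM against 0.383 to 0.567, in a library with a Hox level of 3.25.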

How the results depend on the processing

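The counts of called bile acid genes were 0 by route, 0 over the 3 routes, 0 for route differences and 5 for the Hox slope. Array weights gave 10, 5 and 2 of the first 3 counts. By route these were Slc10a2 and Slc51a in Mix-PO (4.32 and 4.14), Slc10a2, Slc51a, Slc51b, Nr1h4 and Gpbar1 in Mix-IP (4.48, 6.42, 2.03, 1.5 and -0.52), Fabp6 and Nr1h4 in Vancomycin-IP and Nr1h4 in Vancomycin-IV (-1.39, -1.36 and -1.45). The 2 route differences were Slc10a2 and Slc51a under the mix (limma F test, adjusted p = 0.0486 and 0.0438). The share of all genes called by that test with array weights was not counted, and without weights it was 0%. The fit of the compared groups alone gave 2 by route, Slc51b and Nr1h4 in Vancomycin-IP (adjusted p = 0.0148 and 0.00393). Hox level as the only covariate gave 1 by route, Slc10a2 in Vancomycin-IP (-2.89, adjusted p = 0.0359), and 2 over the routes, Slc10a2 and Nr1h4 under vancomycin (-1.73 and -0.99). The 15 PBS libraries alone gave 2 Hox slopes, where the smaller number of libraries is part of the setting. The share of all genes called was not counted in any of these alternatives, nor with single libraries left out. With each library left out in turn the counts by route and for route differences were 0, that over routes ran from 0 to 1 (without PBS-IV replicate 4), and that of the slopes was 5.

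Some uncalled values changed sign. With Hox level as covariate, Nr1h4 under the mix over routes was -0.0175. With the muscle score, Nr1h4 was 0.0069 under vancomycin over routes and 0.0281 in Vancomycin-IP, Slc51a was 0.59 in Vancomycin-IP and Slc51b 0.11 under vancomycin over routes. With both covariates, Nr1h4 was -0.0559 in Mix-IP, Slc51a 0.23 in Vancomycin-IP and Slc51b 0.0193 under vancomycin over routes; with a spline of Hox level, chosen after seeing the data, Nr1h4 was -0.13 in Mix-IP and Slc51b 0.0228 under vancomycin over routes. Slc51a in Vancomycin-IP was 0.40 with array weights, 1.56 without the 12 appended libraries (1 library left in Vancomycin-IP and 2 in PBS-IP), and -1.85 to 0.24 with single libraries left out (0.24 without PBS-IP replicate 3). Fabp6 in Metronidazole-IV was -0.0399 to 2.04 with single libraries left out. The Fabp6 slope was -0.0492 with Hoxa13 and Hoxd13, -0.0158 with array weights, -0.0142 without the appended libraries and -0.0023 without Vancomycin-PO. The cause of these changes was not tested.

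Whether replicate numbers pair the samples is not in the labels. Deviations from group means over all genes tested were correlated for 74 same-numbered pairs with PBS. Of these, 30 had a correlation over 0.1, 15 were best with their own number, and no comparison had all pairs over 0.1. A pairing that leaves little mark on expression would not be seen this way. With the replicate block the counts were 0, 0, 0 and 5, and Slc10a2 in Mix-PO was 3.66 (adjusted p = 0.235). Depth is unknown, so no limit from counting can be given for the low levels of Gpbar1.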
